A study of Homo sapiens with 10 samples.

Results

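Chemokines and chemokine receptors were examined in melanoma cells before and after they had become resistant to a pair of drugs. The members were all genes whose symbol follows the systematic names of the family (CXCL, CCL, CX3CL1 and XCL ligands, CXCR, CCR and CX3CR1 receptors, and the atypical ACKR receptors), which gave 62 of the 57955 genes measured. The 21 members with at least 20 counts in at least 1 library are described below, and the other 41 were counted as silent. Chemokines are small secreted proteins that direct the migration of cells, mostly leukocytes, along concentration gradients. They act through receptors that couple to Gi proteins, whereas atypical receptors bind chemokines without this coupling and take them up. CXCL1 was first isolated as a growth-stimulating factor of melanoma cells, and transcription of many chemokines is driven by NF-κB downstream of interleukin-1 and tumour necrosis factor.

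The cells were 5 established BRAF-mutant human melanoma lines, WM983A, WM278 and WM902B from primary tumours and WM983B and WM1617 from metastases. Each was sequenced once as the original line, sensitive to encorafenib (a BRAF inhibitor) and binimetinib (a MEK inhibitor), and once as the resistant line derived from it. Both drugs had been given in steps that began at 1 nM and reached 200 nM after 3 to 5 months, and the resistant lines were then grown in 200 nM of the combination, so the state of resistance and the presence of the drugs cannot be told apart. All lines were grown in medium with serum. A resistant line is 1 derived population with 1 library, so the replicates of a state are the 5 different lines. WM983A and WM983B came from the same patient, as did WM278 and WM1617, so the lines are not independent donors, and p-values measure only the spread between these libraries.

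The libraries held 13693922 to 18033247 counts, and levels are given as CPM, counts relative to 1000000 counts of the library after TMM scaling, in which 3 counts, taken as the detection floor, correspond to 0.166 to 0.219 CPM before scaling. A change was called between states at an unadjusted p of at most 0.05 with a fold change of at least 2 in edgeR's quasi-likelihood test of 5 resistant against 5 sensitive libraries. Of 17287 genes tested, 764 were called, which is 4.42% (3.53% higher and 0.885% lower in the resistant lines), and 0 passed after Benjamini-Hochberg adjustment (smallest adjusted p = 0.630), whereas DESeq2 gave 90 after adjustment and 1529 without. All 6 melanocytic markers examined (MITF, MLANA, TYR, PMEL, DCT and SOX10) were detected, with a summed level of 336 to 4459 CPM in the sensitive and 86.1 to 4324 CPM in the resistant libraries. The sum was lowest in WM278 among the sensitive and in WM983A among the resistant lines, and SOX10, which specifies the melanocyte lineage, was at 6.47, 12.6 and 0.665 CPM in resistant WM983A, WM983B and WM902B against 274 CPM or more in the other 7 libraries. Of 9 leukocyte markers only CD14 reached 20 counts in a library, and their sum did not exceed 6.35 CPM.

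Of the 41 ligands 16 were described, namely 10 of 14 CXC ligands, 5 of 24 CC ligands and 1 of the 3 CX3C and XC ligands. Of the 21 receptors only 5 were, namely CXCR4, CXCR5, CCR1, CCR10 and the atypical receptor ACKR4. The silent members held 17 genes with 0 counts in all libraries and 24 with 1 to fewer than 20 counts in their highest library. The receptors among them included CXCR1, CXCR2, CXCR3, CXCR6, CCR2, CCR3, CCR4, CCR6, CCR7, CCR8, CCR9, CX3CR1, ACKR1, ACKR2 and ACKR3.

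**Figure D1:**
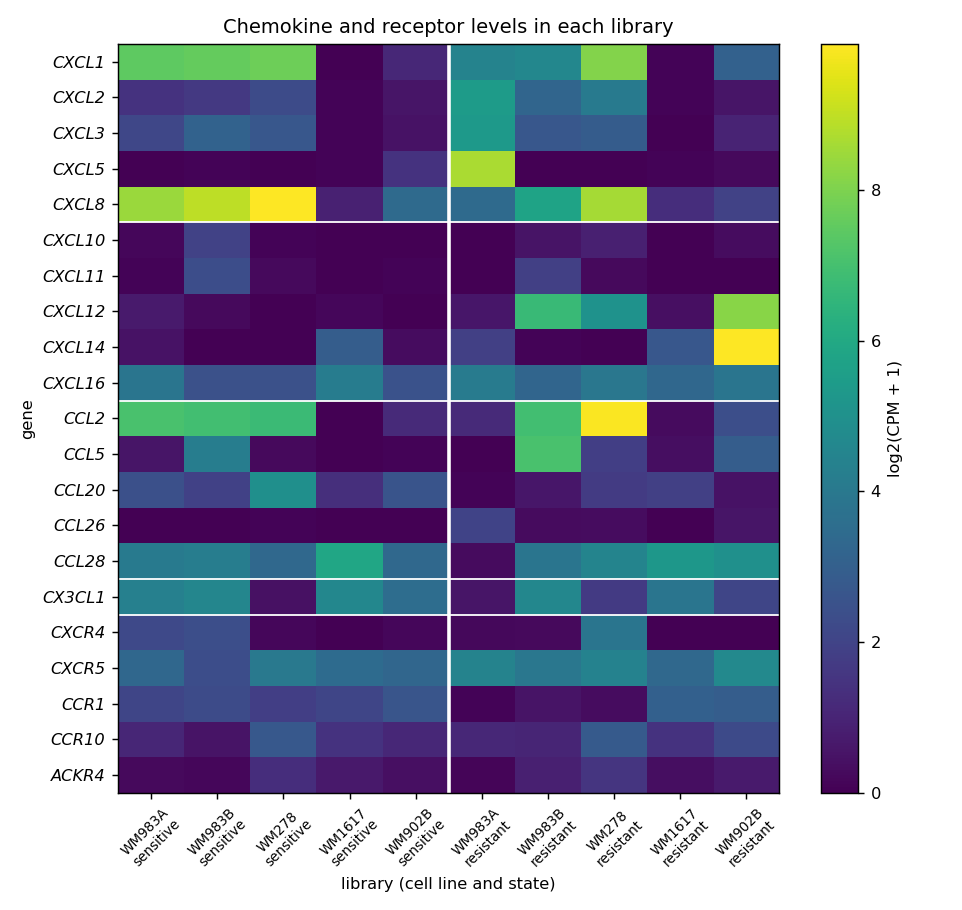
Level of each of the 21 described members in each of the 10 libraries, as log2(CPM + 1), sensitive lines left of the white line and resistant lines right of it. White horizontal lines part the neutrophil-attracting CXC ligands, the other CXC ligands, the CC ligands, CX3CL1 and the receptors. CXCL8, CXCL1 and CCL2 were high in 3 of the 5 sensitive lines, and high values of CXCL5, CXCL14, CXCL12 and CCL5 were found in single resistant libraries or in 3 at most.

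The CXC ligands that carry the ELR motif attract neutrophils through CXCR1 and CXCR2, and 5 of them (CXCL1, CXCL2, CXCL3, CXCL5 and CXCL8) were described. Their genes lie together on chromosome 4 (GRCh38), with CXCL8 at chr4:73740519-73743716, CXCL1 at chr4:73869393-73871308, CXCL5 at chr4:73995642-73998677, CXCL3 at chr4:74036589-74038807 and CXCL2 at chr4:74097040-74099196. The sequence GGAATTTCC, a binding sequence of NF-κB, was looked for on both strands in the 250 bases before the RefSeq transcription start (GRCh38.p14). It was found in 145 of 34943 promoters, which is 0.415%, and in all 5 of these genes. The matches are shown in capitals, 5′ to 3′ on the gene's strand with 10 bases on each side, because the same 9 bases stand in genes whose levels went different ways. Counted from the start, the match began at -78 in CXCL1 and CXCL3, -77 in CXCL2, -90 in CXCL5 and -91 in CXCL8. CXCL1 and CXCL8 lie on the plus strand and the other three on the minus strand.
CXCL1: tggaactccgGGAATTTCCctggcccggg
CXCL2: tggagctccgGGAATTTCCctggcccggg
CXCL3: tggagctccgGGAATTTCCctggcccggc
CXCL5: atgagttcagGGAATTTCCccagcatccc
CXCL8: tgcaaatcgtGGAATTTCCtctgacataa

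Of the 15 described members with an entry in the promoter table, 7 held this sequence, the other 2 being CXCL10 and CXCL11, in which it lay on the reverse strand at -176 and -75. Among all 43 members with an entry 8 held it, and the 250 bases before the starts of CXCL12 and CCL20 did not hold this exact sequence. A looser NF-κB form, in which the middle bases are free, was in 54.4% of all promoters. Taking 1 entry per gene, it was in 11 of the 15. Over all entries of a gene it was found in CXCL12 and CCL20 among others. The sequence TGACTCA, a binding sequence of AP-1, was in 4.22% of all promoters and in CXCL8, CXCL11 and CXCL14 among the 15. A match is a description of the sequence and not of binding. The whole 250 bases are shown for CXCL1 (chr4:73869143-73869392, plus strand) and CXCL5 (chr4:73998678-73998927, minus strand), since the first led with CXCL8 in the sensitive lines and the second in 1 resistant line.
CXCL1: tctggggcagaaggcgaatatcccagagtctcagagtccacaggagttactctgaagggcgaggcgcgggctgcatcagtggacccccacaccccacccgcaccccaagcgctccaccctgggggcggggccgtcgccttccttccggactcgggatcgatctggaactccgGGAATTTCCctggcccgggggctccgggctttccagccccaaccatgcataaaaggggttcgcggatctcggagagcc
CXCL5: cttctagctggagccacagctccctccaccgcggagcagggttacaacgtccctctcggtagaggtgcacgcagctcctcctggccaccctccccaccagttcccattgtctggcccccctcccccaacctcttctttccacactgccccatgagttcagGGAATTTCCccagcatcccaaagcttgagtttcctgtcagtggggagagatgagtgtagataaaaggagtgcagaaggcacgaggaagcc

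CXCL8 (interleukin-8, ENSG00000169429) was the most abundant ligand per length in 4 of the 5 sensitive lines and was lower in the resistant library of 4 of 5 lines. Sensitive WM983A held 345 CPM, WM983B 487, WM278 970, WM1617 0.904 and WM902B 9.83. In the resistant libraries it was at 9.92, 53.4, 385, 1.48 and 2.89 CPM in the same order of lines. WM983A, WM983B and WM278 stood far above WM1617 and WM902B when sensitive, and the groups overlapped. Within lines CXCL8 was 34.8-fold lower in resistant WM983A, 9.12-fold lower in WM983B, 2.52-fold lower in WM278 and 3.39-fold lower in WM902B, and 1.63-fold higher in WM1617. Across states the edgeR log2 fold change was -2.0 (SE 1.70, adjusted p = 0.847, exact permutation p = 0.405), within the spread of the lines. With the cell line as a replicate block it was -2.20 and was called by the unadjusted p (adjusted p = 0.461), and without the resistant WM278 library it was -4.42 and was called as well.

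CXCL1 (GROα, ENSG00000163739), the melanoma growth-stimulating factor, followed the same order among the sensitive lines but not the same direction in all lines. It was at 177, 191 and 212 CPM in sensitive WM983A, WM983B and WM278, at 1.15 CPM in WM902B and at 0 counts in WM1617. Resistant WM983A held 20.6 CPM, WM983B 23.1, WM278 273, WM1617 0.0573 (1 count) and WM902B 7.41. It was 8.60-fold and 8.26-fold lower in resistant WM983A and WM983B, 1.28-fold higher in WM278 and 6.47-fold higher in WM902B. The groups overlapped, and the log2 fold change was -0.84 (SE 1.76, adjusted p = 0.95, exact permutation p = 0.929). Without the resistant WM278 library it was -3.19, and it was not called.

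CXCL2 and CXCL3 (GROβ and GROγ) were low in every sensitive line and highest in resistant WM983A. CXCL2 was at 1.76, 2.12, 3.83, 0.0714 and 0.468 CPM in sensitive WM983A, WM983B, WM278, WM1617 and WM902B and at 42.5, 8.45, 16.1, 0.0573 and 0.488 CPM in the resistant lines. It was thus 24.1-fold, 3.99-fold and 4.21-fold higher in resistant WM983A, WM983B and WM278, and 1 count was found in either state of WM1617. The log2 fold change was 3.02 (SE 1.38, adjusted p = 0.702, exact permutation p = 0.365), and with the replicate block it was 2.09 and was called by the unadjusted p (adjusted p = 0.461). CXCL3 was at 3.29, 7.69, 5.52, 0.0714 and 0.401 CPM in the sensitive and at 39.9, 5.52, 6.51, 0 and 1.00 CPM in the resistant libraries in the same order. It was 12.1-fold higher in resistant WM983A, 2.50-fold higher in WM902B, 1.18-fold higher in WM278 and 1.39-fold lower in WM983B, and the log2 fold change was 1.64 (SE 1.43, adjusted p = 0.851, exact permutation p = 0.722). Without the resistant WM983A library it was -0.07. Of the 75-base windows of their transcripts 7.56% of CXCL2 were shared with CXCL3 or, for a few, CXCL1, and 4.57% of CXCL3 with CXCL2. A small part of their reads thus cannot be assigned to 1 gene.

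CXCL5 (ENA-78, ENSG00000163735) was found at a high level in a single library. It held 5341 counts (410 CPM) in resistant WM983A, 26 counts (1.74 CPM) in sensitive WM902B, 3 counts in resistant WM902B and 1 count or none in each of the other 7 libraries. Resistant WM983A, against 0 counts in the sensitive line, was at least 2079-fold higher, with 3 counts as the floor. In WM902B the level was 8.55-fold lower in the resistant line, with a counting interval (95%, counting error only) of 2.62 to 44.2. An exon of ENSG00000287037 on the opposite strand covers 17.3% of the exon bases of CXCL5.

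Per kilobase of exon, the 5 ELR ligands of WM983A summed to 266 CPM per kb in the sensitive and 236 in the resistant library, while the members that made up the sum changed. CXCL8 and CXCL1 gave 50.1% and 48.8% of the sum in the sensitive library, and CXCL5, CXCL2 and CXCL3 gave 71.4%, 12.9% and 7.62% in the resistant one, in which CXCL8 gave 1.63%. In WM983B the sum was lower in the resistant library, at 46.1 against 333 CPM per kb, and in WM278 it was 363 against 536 CPM per kb, with CXCL1 in place of CXCL8 as the leading ligand (55.1%). WM1617 and WM902B summed to 0.462 and 5.87 CPM per kb when sensitive and to 0.677 and 7.45 when resistant.

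**Figure D2:**
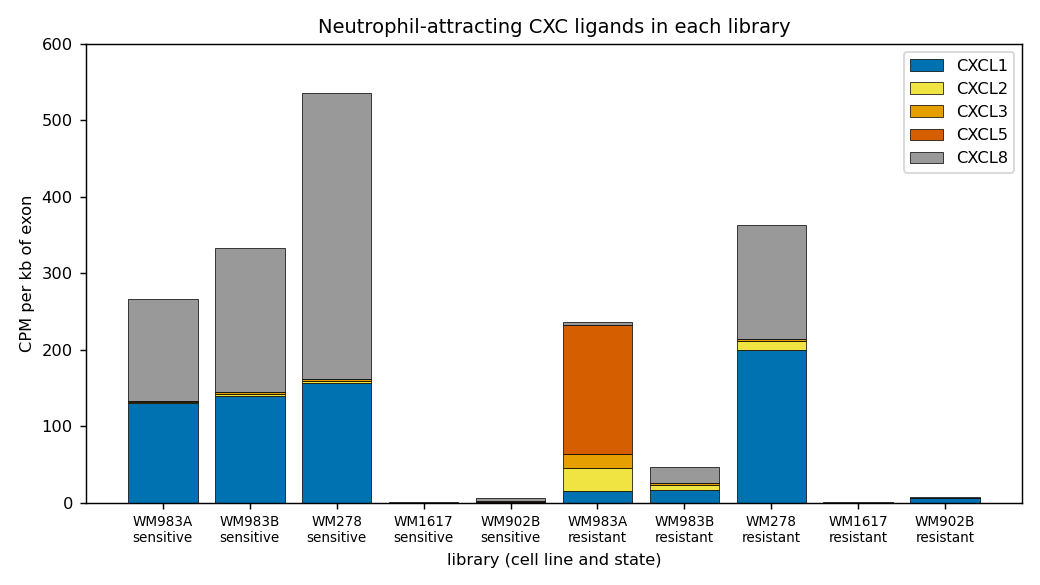
Level of the 5 ELR ligands, stacked, in CPM per kb of exon (linear axis from 0) in each library. The bar of resistant WM983A is close in height to that of the sensitive line but consists mostly of CXCL5, and the bars of WM1617 and WM902B are near 0 in both states.

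CXCL12 (SDF-1, ENSG00000107562, chr10:44370165-44386493), a ligand made by stromal cells that acts through CXCR4, was at or near the floor in all sensitive lines and was higher in 3 resistant ones. The sensitive libraries held 10 counts in WM983A, 3 in WM983B, 2 in WM1617 and none in WM278 and WM902B, which is 0 to 0.658 CPM. Resistant WM983A held 0.538 CPM (7 counts), WM983B 106, WM278 32.6, WM1617 0.344 (6 counts) and WM902B 289. Resistant WM983B was 534-fold higher (counting interval 182 to 2590), resistant WM278 at least 173-fold higher and resistant WM902B at least 1441-fold higher. In WM1617 the ratio of 2.41 had a counting interval of 0.430 to 24.4, and in WM983A CXCL12 was 1.22-fold lower, so the groups overlapped through these lines.

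CXCL12 was not tested by edgeR, since the filter on low counts removes genes found in so few libraries. In an exact two-sided permutation test of log2(scaled counts + 1) over the libraries, the difference was 6.08 with p = 0.0238, where 0.00794 is the smallest p that 5 against 5 can give. The splits mixed all libraries freely and ignored the pairing of each resistant line with its sensitive line, as for every exact permutation p here. This p is not adjusted, and 6.10% of the 19666 genes with at least 20 counts in a library were at or below 0.05 in the same test, against 3 of the 21 members (CXCL12, CCL20 and CCL26). Without both libraries of WM983A the exact p was 0.0286, the smallest that 4 lines allow, and without another line it was 0.0571 to 0.0857. Without the filter edgeR estimated its log2 fold change at 8.67 (SE 1.88, adjusted p = 0.623). By the unadjusted p CXCL12 was called in each of the 5 edgeR fits that tested it. DESeq2 gave 8.73 with an adjusted p of 0.000103, and 8.35 with an adjusted p of 0.00618 with the replicate block, and over the 5 edgeR fits that tested it the adjusted p was 0.184 to 0.972. Of 45 members tested DESeq2 called 4 by the unadjusted p (3.99% of all genes) and CXCL12 alone after adjustment (0.235%). With the replicate block it called 7 (4.71%), and CXCL12 and CCL20 after adjustment (0.828%).

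Of the listed genes of fibroblasts and pericytes, only PDGFRB was higher in all of resistant WM983B, WM278 and WM902B, where CXCL12 was higher. PDGFRB, a receptor of these cells, was at 83.3, 10.8 and 303 CPM in resistant WM983B, WM278 and WM902B, and at 9.62 CPM or less in the other 7 libraries. PDGFRA was at 104 CPM in resistant WM902B and at 6.90 CPM or less elsewhere. In WM278 it was lower in the resistant line, at 2.67 against 6.90 CPM. The matrix gene LUM did not follow, with 57.6, 1.66 and 28.5 CPM in resistant WM983B, WM278 and WM902B against 76.8, 0 and 27.5 CPM in the sensitive ones. THY1 did not follow either, with 0.220, 4.99 and 0.227 CPM against 0.232, 3.29 and 0.134 CPM. DCN was at 4.47 CPM at most. All 5 genes of the list were detected, with a summed level of 10.9 to 80.3 CPM in the sensitive and 3.06 to 440 CPM in the resistant libraries. Their part in the level of CXCL12 was not tested.

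The other CXC ligands were high in 1 line at most or changed little. CXCL14, a ligand made by epithelia, was at 979 CPM in resistant WM902B against 0.267 CPM (4 counts) in the sensitive line, a 3662-fold difference, and this was the highest level per length of any member. It was at 6.64 and 5.50 CPM in sensitive and resistant WM1617, at 0.395 and 2.69 CPM in WM983A, and at 1 count or none in WM983B and WM278. CXCL10 and CXCL11, interferon-induced ligands of CXCR3, were highest in sensitive WM983B at 2.92 and 4.11 CPM. In the other libraries CXCL10 did not exceed 0.829 CPM, and CXCL11 reached 2.70 CPM in resistant WM983B and 0.191 CPM elsewhere. CXCL16, a membrane-bound ligand, was detected throughout at 4.48 to 17.0 CPM in the sensitive and 8.34 to 16.6 CPM in the resistant libraries, and its log2 fold change was 0.49 (SE 0.45, adjusted p = 0.860, exact permutation p = 0.175).

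CCL2 (MCP-1, ENSG00000108691, chr17:34255274-34257208), which attracts monocytes, moved in opposite directions in different lines. Sensitive WM983A held 136 CPM, WM983B 122, WM278 108, WM1617 0 and WM902B 1.27. Resistant WM983A held 1.26 CPM, WM983B 120, WM278 930, WM1617 0.229 (4 counts) and WM902B 4.27. The groups overlapped, with resistant WM278 above all other libraries. It was 108-fold lower in resistant WM983A, 8.60-fold higher in WM278 and 3.36-fold higher in WM902B, and differed by 1.02-fold in WM983B. The log2 fold change of 1.52 (SE 1.98, adjusted p = 0.910, exact permutation p = 0.984) was within the spread of the lines and was -1.22, also uncalled, without the resistant WM278 library.

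CCL20 (MIP-3α, ENSG00000115009, chr2:227805739-227817564), the ligand of CCR6, was the only member called by edgeR between the states, 1 of the 12 that passed its filter. Of all genes tested 4.42% were called in either direction and 0.885% were called lower. CCL20 was at 4.40, 2.80, 29.6, 1.53 and 4.96 CPM in sensitive WM983A, WM983B, WM278, WM1617 and WM902B. In the resistant libraries it was at 0.0768 (1 count), 0.502, 2.28, 2.68 and 0.397 CPM in the same order. CCL20 fell in 4 of 5 lines, by 5.58-fold in WM983B, 13.0-fold in WM278, 12.5-fold in WM902B and 57.3-fold in WM983A (counting interval 9.95 to 2300), and was 1.75-fold higher in resistant WM1617, through which the groups overlapped. The log2 fold change was -2.84 (SE 1.04, adjusted p = 0.645, exact permutation p = 0.0317), and the adjusted p was 0.255 to 0.999 over the edgeR alternatives. With the replicate block 5.53% of the genes were called and the members called were CCL20 (-2.85), CXCL2 and CXCL8. The edgeR call was lost without both libraries of WM278 (log2 fold change -1.86), without the sensitive WM278 library alone (-1.51) and without both of WM902B (-2.76), and the exact p was 0.0286 without WM1617 and 0.0571 to 0.114 without another line. DESeq2 gave an adjusted p of 0.284, and of 0.0243 with the replicate block.

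CCL5 (RANTES), which attracts T cells and monocytes, was highest in WM983B and higher in the resistant line of 4 pairs. It was at 17.6 CPM in sensitive and 133 CPM in resistant WM983B, a 7.59-fold difference. In WM902B it was at 0.0668 CPM (1 count) and 6.57 CPM, a ratio of 98.3 (counting interval 17.2 to 3922), and in WM278 at 0.188 CPM (3 counts) and 2.62 CPM, a ratio of 13.9 (4.43 to 70.2). WM1617 held 0 and 5 counts and WM983A 7 and 0 counts. CCL5 did not pass the filter, its exact permutation p was 0.381, and DESeq2 gave no p without the replicate block and an adjusted p of 0.128 with it. Of its 75-base windows 9.10% were shared with other transcripts.

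CCL28, a mucosal ligand of CCR10, was detected in all libraries but 1 at 9.21 CPM or more. Sensitive WM983A held 15.5 CPM, WM983B 17.6, WM278 9.25, WM1617 58.6 and WM902B 9.21. The resistant libraries were at 0.230 (3 counts), 13.6, 21.6, 37.8 and 30.6 CPM in the same order. CCL28 was 67.4-fold lower in resistant WM983A (counting interval 22.8 to 329) and 3.33-fold and 2.34-fold higher in WM902B and WM278, and its log2 fold change was -0.08 (SE 0.90, adjusted p = 0.991, exact permutation p = 0.786). CCL26 (eotaxin-3), a ligand of CCR3, held 1 count in sensitive WM278 and none in the other sensitive libraries. It was at 3.05 CPM (39.6 counts) in resistant WM983A, at least 15.4-fold more, at 0.217, 0.255 and 0.478 CPM in resistant WM983B, WM278 and WM902B, and at 0 in WM1617. Its exact permutation p of 0.0476 rested on these low counts, and was 0.143 without any of WM983A, WM983B, WM278 or WM902B and 0.0286 without WM1617. CCL26 did not pass the edgeR filter, and it was called by the unadjusted p in edgeR without the filter (log2 fold change 5.17, adjusted p = 0.623) and in DESeq2 (5.40, adjusted p = 0.187, and 3.85, adjusted p = 0.635, with the replicate block).

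CX3CL1 (fractalkine), a membrane-anchored ligand that captures cells with CX3CR1, was at 19.1, 22.7, 23.1 and 10.6 CPM in sensitive WM983A, WM983B, WM1617 and WM902B and at 0.376 CPM (6 counts) in WM278. Resistant WM983A held 0.461 CPM (6 counts), WM983B 23.5, WM278 2.23, WM1617 13.5 and WM902B 3.24. It was 41.4-fold lower in resistant WM983A, 3.28-fold lower in WM902B and 5.93-fold higher in WM278. The log2 fold change was -0.82 (SE 1.04, adjusted p = 0.905, exact permutation p = 0.484).

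Of the receptors, CXCR4 and CCR1 changed most within lines. CXCR4, the receptor of CXCL12, held 55 counts in sensitive WM983A, 63 in WM983B and 2, 0 and 2 in WM278, WM1617 and WM902B. In the resistant lines it held 2, 3, 214, 0 and 0 counts in the same order, which is 13.7 CPM in WM278 and 0.188 CPM at most elsewhere. It was 23.6-fold lower in resistant WM983A (counting interval 6.22 to 199), 22.2-fold lower in WM983B (7.25 to 110) and 109-fold higher in WM278 (29.8 to 904). Resistant WM278 was thus the only library with at least 20 counts of both CXCL12 and CXCR4, and ACKR3, the atypical receptor of CXCL12, held 9 counts at most.

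CCR1, a receptor of CCL5 and other CC ligands, was even among the sensitive lines, at 2.57 to 5.21 CPM. In the resistant lines it was at 0.0768 (1 count), 0.439 and 0.255 CPM in WM983A, WM983B and WM278 and at 7.22 and 6.69 CPM in WM1617 and WM902B. It was 42.0-fold (counting interval 7.19 to 1691), 8.75-fold and 10.1-fold lower in the first 3 and 2.25-fold and 1.28-fold higher in the last 2, and its log2 fold change was -0.29 (SE 0.98, adjusted p = 0.972, exact permutation p = 0.167). With the replicate block it was -1.71 in edgeR, not called, and -1.99 in DESeq2, called by the unadjusted p (adjusted p = 0.476). ACKR4, which takes up CCL19, CCL21 and CCL25, did not exceed 1.92 CPM, and 22.9% of its 75-base windows were shared, mostly with the pseudogene ACKR4P1.

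Most of the counts given to CXCR5, and a part of those given to CCR10, could not be told apart from those of overlapping genes on the opposite strand, because the counting is not stated to use strand. CXCR5 (chr11:118883892-118897787, plus strand), known as a receptor of B cells, was at 4.07 to 15.2 CPM in the sensitive and 9.21 to 24.3 CPM in the resistant libraries and was higher in 4 of 5 resistant lines. Exons of BCL9L on the minus strand cover 91.1% of its exon bases. BCL9L was at 26.0 to 105 CPM in the sensitive and 57.2 to 114 CPM in the resistant libraries, and the counts of CXCR5 were 14.5% to 21.8% of those of BCL9L in every library. The log2 fold change was 0.91 (SE 0.38, adjusted p = 0.685, exact permutation p = 0.0556) for CXCR5, under 2-fold, and 0.60 (SE 0.35, adjusted p = 0.764) for BCL9L. CCR10, a receptor of CCL28, was at 0.431 to 5.72 CPM in the sensitive and 1.04 to 6.04 CPM in the resistant libraries, highest in WM278 in both. Other genes, CNTNAP1 among them, cover 34.4% of its exon bases, and its counts were 4.70% to 8.27% of those of CNTNAP1. The CCR10 value of sensitive WM983B had been stored as a date and was recovered as 6.5 counts.

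**Figure D3:**
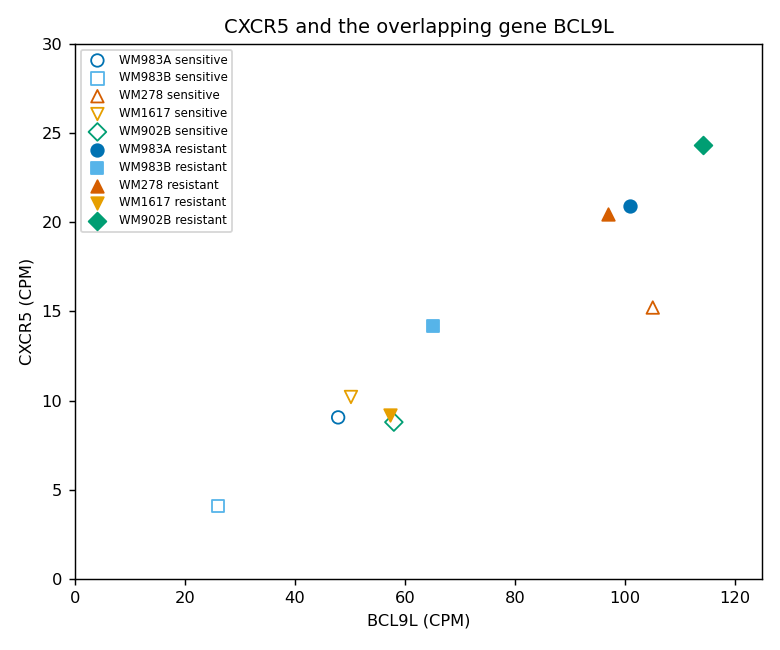
Level of CXCR5 against that of BCL9L in CPM (linear axes), 1 point per library, open for sensitive and filled for resistant lines. The points lie along a band in which CXCR5 is 14.5% to 21.8% of BCL9L in counts.

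For most of the ligands above no library held 20 counts of their main receptor. CXCR1 and CXCR2, the receptors of the ELR ligands, held 0 and 1 count at most in any library, CCR2 (for CCL2) and CXCR3 (for CXCL10 and CXCL11) held 0, CCR6 (for CCL20) 1.5, CX3CR1 4 and CXCR6 (for CXCL16) 13. CCL5 and CCR1 both reached 20 counts in sensitive WM983B and resistant WM902B, and CCL28 and CCR10 in 5 libraries, with the limit named for CCR10. Chemokine genes with other names were no members: PF4, PF4V1, PPBP, XCR1, CCL3L3 and CCL4L2 held 3 counts at most, CCRL2 27 counts in resistant WM902B and fewer elsewhere, and MIF 136 to 1364 counts.

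Within a line a member was counted as changed where the ratio of scaled counts, with 1 added to both, was at least 2-fold. There is 1 library per state in a line, so these counts have no replicate check. For WM983A the pairing rests on the name of the line, since the levels of its libraries did not match (r of -0.06, described under processing). In resistant WM983A 6 members were higher and 11 lower, 17 of 21, against 20.3%, 20.6% and 40.9% of the 19666 genes with at least 20 counts in a library. In WM983B 7 were higher (19.2%) and 7 lower (11.9%), 14 in all (31.1%). In WM278 10 were higher (14.4%) and 3 lower (8.18%), 13 in all (22.6%). In WM902B 12 were higher (17.9%) and 6 lower (13.5%), 18 in all (31.4%). In WM1617, the line that changed least, 3 were higher (3.66%) and 1 lower (5.92%), 4 in all (9.58%). Some of these ratios rest on a few counts. Where only members with at least 20 counts in 1 of the line's libraries were taken, 14 of 15 changed in WM983A (39.6% of such genes), 10 of 16 in WM983B (29.5%), 11 of 16 in WM278 (20.6%), 13 of 14 in WM902B (28.9%) and 1 of 9, CCR1, in WM1617 (6.10%).

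The direction differed between lines. Of the 21 members 10 were at least 2-fold higher in a resistant line and at least 2-fold lower in another, against 18.2% of all genes, and 7 were (CXCL1, CXCL5, CCL2, CCL28, CX3CL1, CXCR4 and CCR1) where only lines with at least 20 counts were taken, against 10.7%. None of the 21 moved in the same direction in all 5 lines, against 10.7% of all genes, and in none did the groups of 5 libraries not overlap, against 0.747%. The range of the log2 ratio over the lines had a median of 5.73 among the members and 1.76 among all genes. In the edgeR fit the median log2 fold change was 0.17 over the 12 members tested, 6 of them positive, and 0.03 over all genes.

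**Figure D4:**
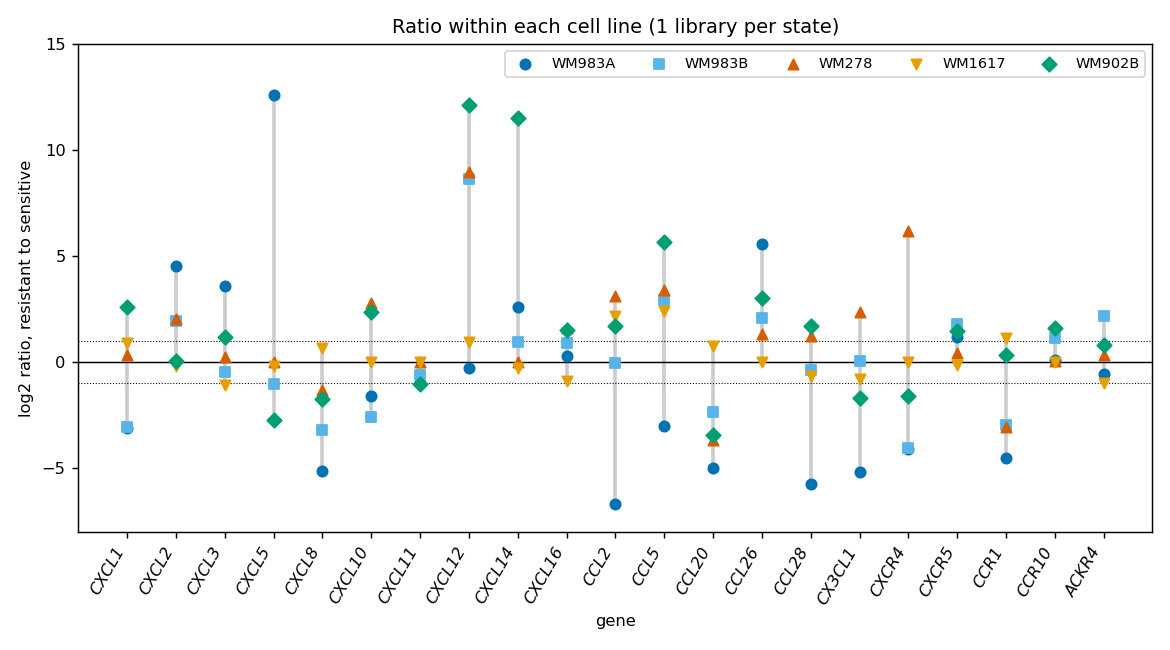
Ratio of the resistant over the sensitive library on a log2 scale, with 1 added to both scaled counts, for each described member and line, with the range over the 5 lines in grey and 2-fold marked by dotted lines. For CXCL1, CCL2, CCL28, CX3CL1, CXCR4 and CCR1 the lines fall on both sides of 0 beyond 2-fold, and WM1617 lies within 2-fold for 17 of the 21 members.

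The 2 lines of one patient could differ widely or hardly at all. Between sensitive WM278 and WM1617, CXCL8 was 1073-fold, CXCL1 at least 991-fold, CCL2 at least 505-fold and CCL20 19.3-fold higher in WM278, and CX3CL1 and CCL28 were 61.4-fold and 6.33-fold higher in WM1617. Between sensitive WM983A and WM983B, none of these 6 genes differed by 2-fold, the ratios being 1.08 to 1.57. In the resistant state CCL2 was 95.9-fold, CCL28 59.0-fold (counting interval 19.96 to 289), CX3CL1 51.1-fold, CCL20 6.54-fold (0.876 to 290.0), CXCL8 5.39-fold and CXCL1 1.12-fold higher in WM983B than in WM983A. Resistant WM278 exceeded WM1617 4757-fold in CXCL1 (853 to 187959), 4059-fold in CCL2 and 261-fold in CXCL8, and WM1617 was 6.03-fold higher in CX3CL1, 1.74-fold in CCL28 and 1.17-fold in CCL20. These are ratios of single libraries.

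Stage of the tumour was compared within each state, 3 primary against 2 metastatic lines. Among the sensitive lines 1 of 13 members tested was called (1.41% of all genes), CCL28, at a mean of 11.3 CPM in primary and 38.1 CPM in metastatic lines (log2 fold change -1.75, SE 0.59, adjusted p = 1.00). The call was lost without WM1617, WM278 or WM902B. Among the resistant lines 1 of 16 was called (3.55%), CX3CL1, at 1.98 and 18.5 CPM (log2 fold change -3.22, SE 0.89, adjusted p = 1.00), and it was lost without WM983B. No member passed after adjustment in either state, and both metastatic lines share a patient with a primary line.

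Genes that act downstream of chemokine receptors, such as Gi proteins, regulators of G-protein signalling (RGS), arrestins and Rac activators, had few calls. Of 43 symbols listed 41 were in the files and 36 were tested, with 1 called higher and 1 called lower, which is 5.56% against 4.42% of all genes, 0 after adjustment, and a median log2 fold change of -0.09. RGS3, which limits G-protein signalling, was higher (log2 fold change 1.35, adjusted p = 0.694), at a mean of 36.2 CPM in the resistant and 14.2 CPM in the sensitive libraries, and the Rac activator TIAM1 was lower (-1.35, adjusted p = 0.675), at 20.3 against 52.0 CPM. PIK3CD, a leukocyte-type phosphoinositide 3-kinase, changed by less than 2-fold (-0.80, SE 0.18, adjusted p = 0.630) but was lower in all 5 resistant lines, with means of 46.8 and 81.6 CPM. Of 15 fits without a line or library, RGS3 was called in 3 and TIAM1 in 8.

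Of 33 genes that act upstream of chemokine transcription (interleukin-1, tumour necrosis factor and interferon pathways and NF-κB), 27 were tested, with 3 called higher and 1 lower. This is 14.8% against 4.42% of all genes, with 0 after adjustment in edgeR and a median log2 fold change of 0.35. Since the list was chosen with earlier results of these data known, the share cannot be read as an excess. After adjustment DESeq2 called IL6 (adjusted p = 0.0466), and with the replicate block it called IL6 (adjusted p = 0.0201) and IL1R1 (adjusted p = 0.00275). IL6, a cytokine induced by NF-κB, was higher (log2 fold change 4.87, SE 1.53, adjusted p = 0.630). It was at 96.8, 55.1 and 35.6 CPM in resistant WM983B, WM278 and WM902B, the lines in which CXCL12 was higher, and at 2.92 CPM or less in the other 7 libraries. IL1R1, the interleukin-1 receptor, was higher in 5 of 5 resistant lines (3.56, SE 1.13, adjusted p = 0.630), at 11.5 CPM in WM1617 to 400 CPM in WM902B against 0.795 to 24.2 CPM in the sensitive lines. STAT2, of the interferon pathway, was higher (1.28, adjusted p = 0.685) and the interferon-γ receptor chain IFNGR2 lower (-1.17, adjusted p = 0.632). Of the 15 fits without a line or library, IL6 was called in 15, IL1R1 in 14 (not without WM902B), IFNGR2 in 12 and STAT2 in 6, and STAT2 was lost with the replicate block.

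IL1A and IL1B, the ligands of IL1R1, were high in WM278 alone, the line with the highest CXCL8 in both states and, when resistant only, the highest CCL2. IL1B was at 741 CPM in sensitive and 119 CPM in resistant WM278 and at 16.5 CPM or less in the other 8 libraries. IL1A was at 245 and 107 CPM in WM278 and at 2.10 CPM or less elsewhere. IL1B was not called between the states, and IL1A did not pass the filter. Whether either has a part in the levels of CXCL8 or CCL2 was not tested.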

How the data were processed

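Sequencing libraries of 5 sensitive and 5 resistant melanoma lines, 1 each, were read with single-end reads of 75 cycles after oligo-dT selection. The authors used HISAT2 against GRCh38 and name StrandNGS for the statistics that followed. The tool that counted genes, versions, annotation, strand setting and the handling of shared reads are not given in the sources used here. The raw values the authors deposited are expected counts, of which 24.1% of those above 0 are whole. A second column the authors deposited is log2, scaled by DESeq size factors and relative to the sensitive library of the line, and was used only to recover 455 raw values of sensitive WM983B stored as dates, all of which fitted the digits still visible.

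Expected counts were rounded, filtered by filterByExpr and tested with edgeR 4.0.16 (TMM, quasi-likelihood) in R 4.3.3, without a block, as the sequencing test in the paper's methods is not stated as paired. DESeq2 1.42.0 and a replicate block were alternatives, and DESeq2 with the block and within-line counts limited to at least 20 counts were added after seeing the data. Permutations, ratios and figures used Python 3.11.15, numpy 2.4.6, pandas 2.3.3 and matplotlib 3.10.9. The edgeR fit with and without the block, DESeq2 without it and the permutation test were tried on simulated data, the other steps were not. Folds between libraries use scaled counts, with 3 counts as a floor against 0. Where a library held 1 to 3 counts, an exact 95% interval is given, which covers counting error only. Exons are from GENCODE release 44 and promoters from RefSeq. The numbers pair the samples, as each resistant line derives from the sensitive line of its name. The r of deviations from the group means, across genes, was -0.06 for WM983A and 0.38 to 0.67 for the others. In the others the resistant library of the same line gave the highest r, and in WM983A it did not. The pairing of WM983A thus rests on its name, and so do the ratios within it.

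Values in every library are given for members with at least 500 counts in a library, CXCL12, CXCL1 and CCL2, and members at p of at most 0.05, in edgeR with a fold of at least 2 or by permutation. Other members with such values, PIK3CD, IL1A, IL1B and the same-patient ratios were chosen after their values were seen. Members and lists were chosen with earlier results of these data known. One silent member is not reported by name here.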

Additional observations from a re-analysis of the deposited data

Results flagged for a closer look

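In 7 of 42 groups of 5 libraries (21 members in 2 states) the highest or lowest library stood further from the rest than Dixon's limit of 0.710, the gap to its neighbour as a share of the range. Chance gives about 1 in 20 such groups only if the values are normally distributed, which counts near the floor are not. The share over all genes is not given, so the 7 cannot be read as an excess among the members. All levels are log2-transformed before the gap is taken. In the sensitive libraries WM278 was highest for CCL26 with 1 count (1.00) and lowest for CX3CL1 (0.804), WM983B was highest for CXCL10 (0.712), and WM902B was highest for CXCL5 (0.778). In the resistant libraries WM983A was lowest for CCL28 (0.790) and highest for CXCL5 (0.839), and WM278 was highest for CXCR4 (0.747).

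For CXCL3 the log2 ratio between the states was positive (higher when resistant) in all 3 primary lines, with a mean of 1.67, and negative in both metastatic lines, with a mean of -0.77. The difference of 2.43 was not tested, and 1 of the metastatic lines held 1 count and 0 counts.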

How the results depend on the processing

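No member or listed gene called in the main fits changed sign in an alternative. Calls made only in an alternative could change sign. CXCL5 was called in edgeR without the filter (log2 fold change 7.66) and was -1.14, not called, in DESeq2 with the replicate block. Among all genes DESeq2 called 1529, DESeq2 with the replicate block 1805 and edgeR without the filter 2258 in place of 764, and 420 to 1578 were called when a line or library was left out. The replicate block gave 956. Of the members tested 1 of 12 was called. DESeq2 called 4 of 45 (3.99% of all genes), and 7 of 45 with the replicate block (4.71%). Without the filter edgeR called 7 of 45, against 2258 of 38285 genes. With at least 10 counts in every library edgeR called 0 of 3, against 519 of 13699 genes. With the replicate block it called 3 of 12 (5.53%). Leaving out gave 0 to 4, of 12 to 14 tested, against the 420 to 1578 of all genes. Of the signalling genes DESeq2 with the replicate block called 6, no filter 4 and leaving out 0 to 5 in place of 2, and the replicate block 3. Of the upstream genes leaving out gave 2 to 7 in place of 4, and the replicate block 3. The counts over all genes in the same fits are those at the head of this paragraph. For stage among the sensitive lines DESeq2 called 4 of 37 members tested and no filter 6 of 37, in place of 1 of 13. Leaving out a primary line gave 0 to 2. Among the resistant lines DESeq2 called 4 of 40 and no filter 2 of 40, in place of 1 of 16, and leaving out a primary line gave 1. The share over all genes is not given for these stage alternatives. The permutation test called 0 to 2 members without a line in place of 3. Of 105 ratios within lines 66 were at least 2-fold, 43 at least 4-fold, and 49 of the 70 from lines with at least 20 counts. The share over all genes is not given for the permutation test without a line or for these pooled ratios. The cause was not tested, except that 4 lines allow no p under 0.0286 and that the filters set which members are tested. CCL20 was called in 17 of 20 alternatives, and CXCL2 and CXCL8, not called as reported, were in 8 and 3.

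Limits are 1 library per line and state, lines that share a patient, and 9 of 21 members under the filter. The drugs were present in the resistant cultures, so their direct effect and resistance cannot be told apart. Depth sets a floor of 3 counts, and at the levels of most receptors a difference was not detectable.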
